A study of Mus musculus with 12 samples.

Results

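The genes described here are 40 members of the cell's matrix adhesion machinery: 12 integrin α subunits, 7 integrin β subunits and 21 proteins that bind integrins inside the cell or sit with them at focal adhesions. They were chosen by gene name, with no measured value in the rule, from the 54446 genes in the count table. All 40 were found, and 37 had enough reads to be tested. Fermt1 had 0 counts in each of the 12 samples, Itga2 had at most 2 counts in a sample and Itga4 at most 5, so these 3 genes were left out of every test. The share of all counts taken by the 40 members ranged from 0.98% to 1.46% between samples.

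Integrins are receptors made of 1 α and 1 β subunit that hold a cell to the proteins around it. Talin and kindlin bind the short tail of the β subunit and switch the receptor on, and vinculin, α-actinin, filamin and tensin tie the assembled receptors to actin filaments. The kinases Ptk2 (focal adhesion kinase) and Src, with the docking proteins paxillin (Pxn) and p130Cas (Bcar1), pass the signal on, so that fibroblasts spread, pull on their matrix and migrate. Caveolin (Cav1) builds small pits of the membrane in which part of the integrins are found.

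RNA came from NIH3T3 cells, a mouse embryonic fibroblast line, and from ΔN-VEGF cells derived from it. In ΔN-VEGF cells CRISPR/Cas9 had removed the coding sequence of N-VEGF, the N-terminal part of the long VEGF form made from Vegfa. Each line was kept for 16 h in normoxia or in hypoxia below 0.2% oxygen, which gave 4 groups of 3 samples: wild-type normoxia, wild-type hypoxia, ΔN-VEGF normoxia and ΔN-VEGF hypoxia. To make the edited cells, donor cassettes with a fluorescent reporter were swapped in and single clones were picked. The cassettes were then removed from picked clones with a recombinase, and cells without fluorescence were sorted. Which clone was sequenced is not given in the sources used here, and all ΔN-VEGF samples may descend from 1 clone, so the deletion and a difference between clones cannot be told apart. The labels number the samples 1 to 3 and do not say that these were separate cultures, so the p-values measure the spread between these samples, which may be technical.

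The libraries held 30519052 to 43056690 counts on genes. Mitochondrial genes took 2.62% to 3.55% of the counts in the normoxia samples and 1.53% to 2.08% in the hypoxia samples. The 10 genes with the most counts took 6.96% to 8.77% and 9.15% to 10.48%. The part of these differences between conditions in the results was not tested. Wild-type normoxia replicate 2 stood apart from the other samples: its log expression correlated at 0.956 with its own group, against at least 0.986 within each of the other groups. Of 37 tested members, 11 (29.7%) lay more than 2-fold from the mean of replicates 1 and 3 in that library, compared with 24.5% of 11589 genes. For ΔN-VEGF normoxia replicate 2 this was 3 of 36 members (8.33%) and 3.49% of 11245 genes. The shares of all genes cover only genes with a mean above 1 CPM in replicates 1 and 3, a limit not set for the members. Of the members beyond 2-fold, Itga9, Itga11 and Ilk were below that limit in wild-type normoxia and Ilk in ΔN-VEGF normoxia. The members and all genes are therefore not on equal terms here. The calls of each comparison are therefore given with and without wild-type normoxia replicate 2. Counts of replicates 1 and 3 differed by a mean chi-square of 2.94 to 6.3 per gene, where sampling of reads alone gives about 1, so no pair was close enough to be 1 library deposited again. These were the closest pair in each of the 4 groups. Replicate 2 differed from them by 353 and 370 in wild-type normoxia, 83.3 and 77.7 in ΔN-VEGF normoxia, 16.9 and 18.2 in wild-type hypoxia and 8.31 and 8.79 in ΔN-VEGF hypoxia. Counts over the whole Vegfa gene do not check the deletion. They were 86.2, 39.4 and 82.6 CPM in wild-type normoxia (CPM, counts scaled to the size of the library), 277, 272 and 291 in wild-type hypoxia, 37.3, 34.2 and 35.5 in ΔN-VEGF normoxia and 437, 419 and 430 in ΔN-VEGF hypoxia. Car9, Vegfa, Egln3, Bnip3, Pdk1 and Ankrd37, genes known to be raised by low oxygen, were all 6 higher in hypoxia in each line. The summed level of 11 fibroblast markers was 11200 to 28200 CPM, although Lum reached at most 6 counts and Fap at most 2. Summed over 8 blood cell, 6 endothelial and 6 epithelial markers, the levels were 5.22 to 9.22, 2.69 to 25.7 and 0.355 to 8.8 CPM, and Ptprc, Kdr and Epcam had at most 2, 1 and 0 counts. The endothelial sum was highest in ΔN-VEGF hypoxia (20.7 to 25.7 CPM, nearly all Cdh5) and the epithelial sum in wild-type hypoxia (8.18 to 8.8 CPM, nearly all Krt19), and their part in the results was not tested.

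The integrin pair with the most RNA was Itga5, the α subunit of the classical fibronectin receptor, with Itgb1, the β subunit that most α subunits use. Divided by exon length, Itga5 stood at 51.7 ± 4.62 CPM per kb in wild-type normoxia (mean ± SD, n = 3), which was 56.3% of the summed α subunit level. Itgav at 14.2 ± 1.6, Itga3 at 11.8 ± 4.49 and Itga6 at 10.6 ± 2.62 CPM per kb followed, and the ranges of neighbours in this order overlapped. The other α subunits were at 1.65 CPM per kb or less there. Itgb1 took 80.3% of the summed β subunit level, with 180 ± 24.7 CPM per kb, followed by Itgb5 at 27.7 ± 5.79 and Itgb4 at 9.66 ± 1.42. Itgb7, Itgb3, Itgb8 and Itgb6 came next in that order, from 4.5 ± 0.344 down to 0.033 ± 0.00664 CPM per kb, with no overlap between neighbours. In hypoxia Itgav reached 25.6 ± 2.51 CPM per kb in wild-type cells (22% of the α subunits) and 32 ± 0.382 in ΔN-VEGF cells (31.2%). Itga5 stayed first in each group, at 48.1 ± 1.09 to 57.2 ± 6.39 CPM per kb. Itga3 came next to Itgav in ΔN-VEGF normoxia, where their ranges overlapped, and after Itgav and Itga6 in ΔN-VEGF hypoxia, where it overlapped no neighbour.

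**Figure D1:**
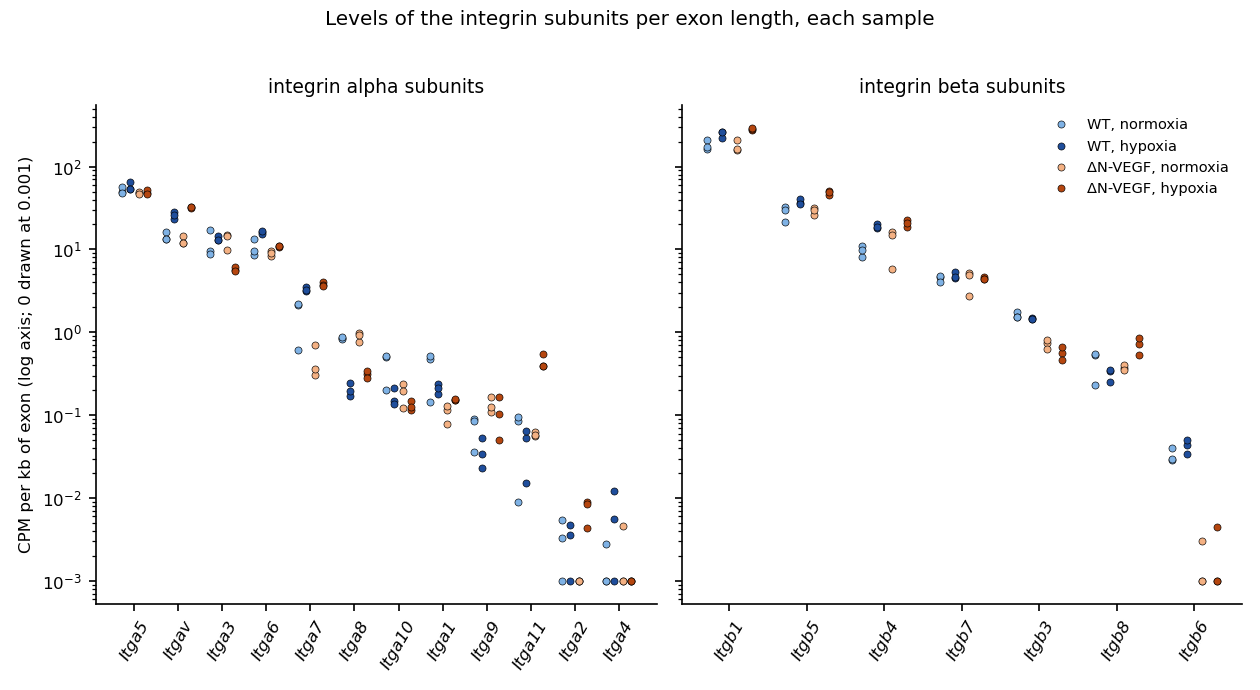
Level of each integrin subunit in CPM per kb of exon on a log axis, 1 point per sample and a row of points for each of the 4 groups; a value of 0 is drawn at 0.001. Itga5 leads the 12 α subunits and Itgb1 the 7 β subunits in every group, while Itgb6 lies at or near 0 in both ΔN-VEGF groups.

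The first question was how the adhesion genes of each line differed between hypoxia and normoxia. A gene was called at an adjusted p below 0.05 in edgeR's quasi-likelihood test, with no fold threshold and with p-values adjusted over the 14724 genes tested. In wild-type cells 15 of 37 members rose and 2 fell, compared with 18.2% of all tested genes that rose and 18.3% that fell. The median log2 fold change was 0.37 over the members and −0.07 over all genes. In ΔN-VEGF cells 16 members rose and 3 fell, beside 26.9% and 26.4% of all genes, with a median of 0.33 against −0.01. Bulk counts cannot tell more RNA per cell from more cells that express a gene. By sample, the members' median centred log2 CPM was −0.29 to −0.03 in the 6 normoxia samples and 0.17 to 0.28 in the 6 hypoxia samples, so the conditions did not overlap, whereas the median of all genes lay between −0.02 and 0.01.

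Without wild-type normoxia replicate 2, 22 members rose and 6 fell in wild-type cells, while 27.1% and 26.9% of 15145 genes did. In ΔN-VEGF cells 22 rose and 5 fell, beside 32.8% and 34.3%, and here the log2 fold change of each member moved by less than its SE. Values given as "without replicate 2" leave out this wild-type library. All 17 and all 19 calls made with the 12 samples remained, in the same direction. Scaling by total counts alone moved the median log2 fold change of all genes to −0.30 (wild type) and −0.41 (ΔN-VEGF). The members then split into 11 higher and 5 lower in wild-type cells, beside 12.8% and 32.7% of all genes, and into 10 and 7 in ΔN-VEGF cells, beside 15.3% and 44.5%. Their median was 0.14 in the former and −0.07 in the latter. The calls that this scaling ended were those of Itgb1, Itgb4, Itgb5 and Lims1 in the wild type and of Itgb5, Itgb8, Pxn, Ilk, Flna and Lims1 in ΔN-VEGF cells.

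**Figure D2:**
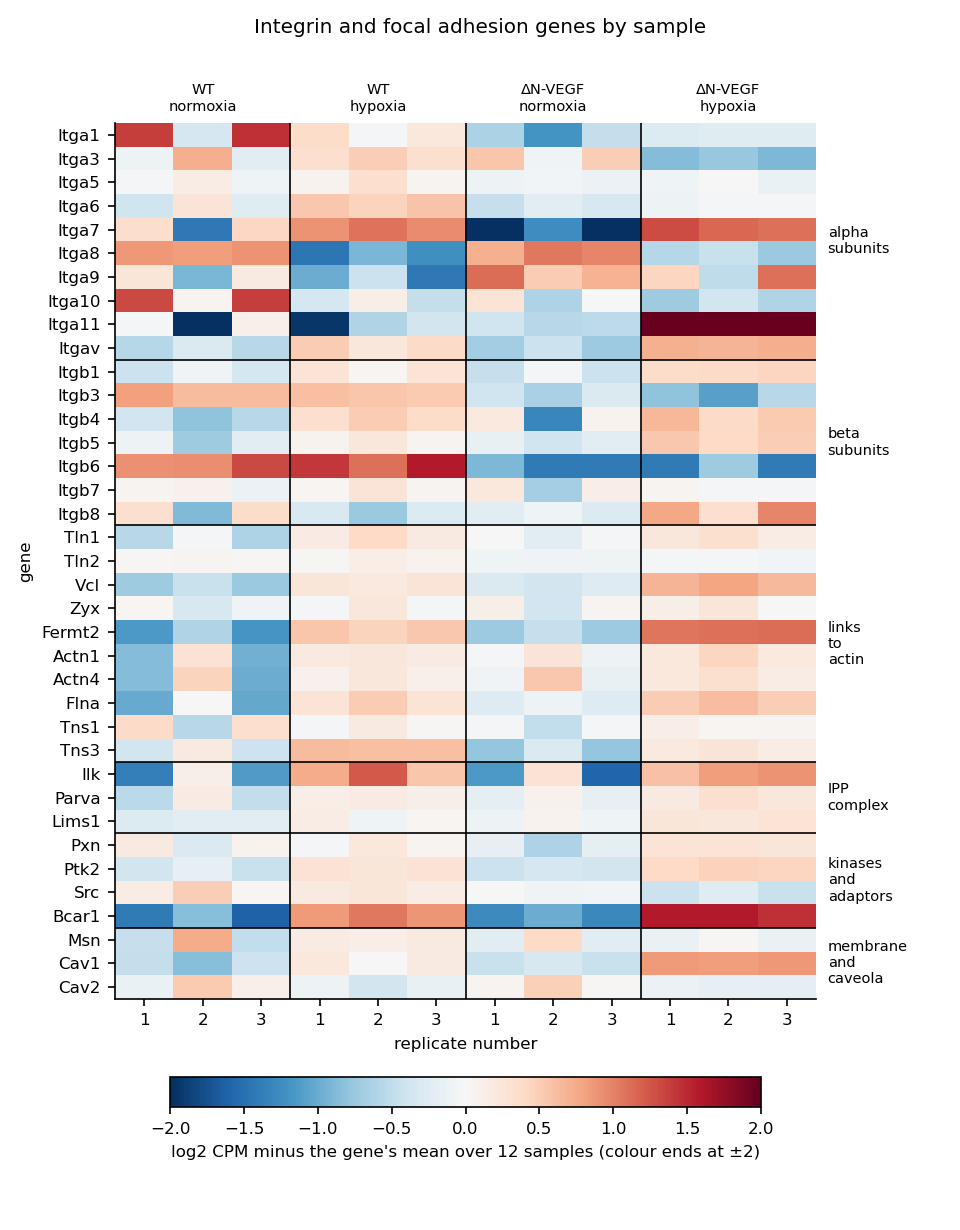
Log2 CPM of the 37 tested members, centred on each gene's mean over 12 samples, with 1 column per sample and colour ends at ±2. Bcar1, Fermt2, Vcl, Itgav and Cav1 are higher in all hypoxia columns, and the column of wild-type normoxia replicate 2 differs from those of replicates 1 and 3.

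The same 12 genes were called higher in both lines, which was 80% of the 15 members that rose in wild-type cells and 75% of the 16 in ΔN-VEGF cells: Itgav, Itgb1, Itgb5, Vcl, Ptk2, Ilk, Fermt2, Flna, Bcar1, Lims1, Tns3 and Cav1. Of all tested genes that rose, 86.8% of the 2675 in wild-type and 58.6% of the 3964 in ΔN-VEGF cells also rose in the other line. Itga8 was called lower in both. Itga6, Itgb4 and Tln1 were called higher and Itga10 lower in wild-type cells alone. Itga7, Itga11, Itgb8 and Pxn were called higher and Itga3 and Src lower in ΔN-VEGF cells alone. Whether these responses differed between the lines is a separate test, given with the last comparison. Itga1, Itga5, Itga9, Itgb3, Itgb6, Itgb7, Tln2, Zyx, Parva, Actn1, Actn4, Tns1, Msn and Cav2 passed in neither line with the 12 samples. Without replicate 2, the calls added in wild-type cells were Itga3, Itga5, Itga7, Parva, Actn1, Actn4 and Msn as higher and Itga1, Itga9, Itgb8 and Tns1 as lower. Those added in ΔN-VEGF cells were Itga1, Itga6, Itgb4, Tln1, Parva and Actn1 as higher and Itgb3 and Cav2 as lower. Of the 12 fits that each left out 1 sample, all kept 11 of the 17 wild-type and 14 of the 19 ΔN-VEGF calls. Itga10, Itgb1, Itgb4, Itgb5, Ilk and Lims1 were lost in wild-type cells in 3 to 5 of them (adjusted p up to 0.13), most often without a wild-type sample numbered 1 or 3. Itgb8, Src, Ilk, Flna and Lims1 were lost in ΔN-VEGF cells in 3 to 8 (up to 0.13), most often without a ΔN-VEGF sample numbered 1 or 3.

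**Figure D3:**
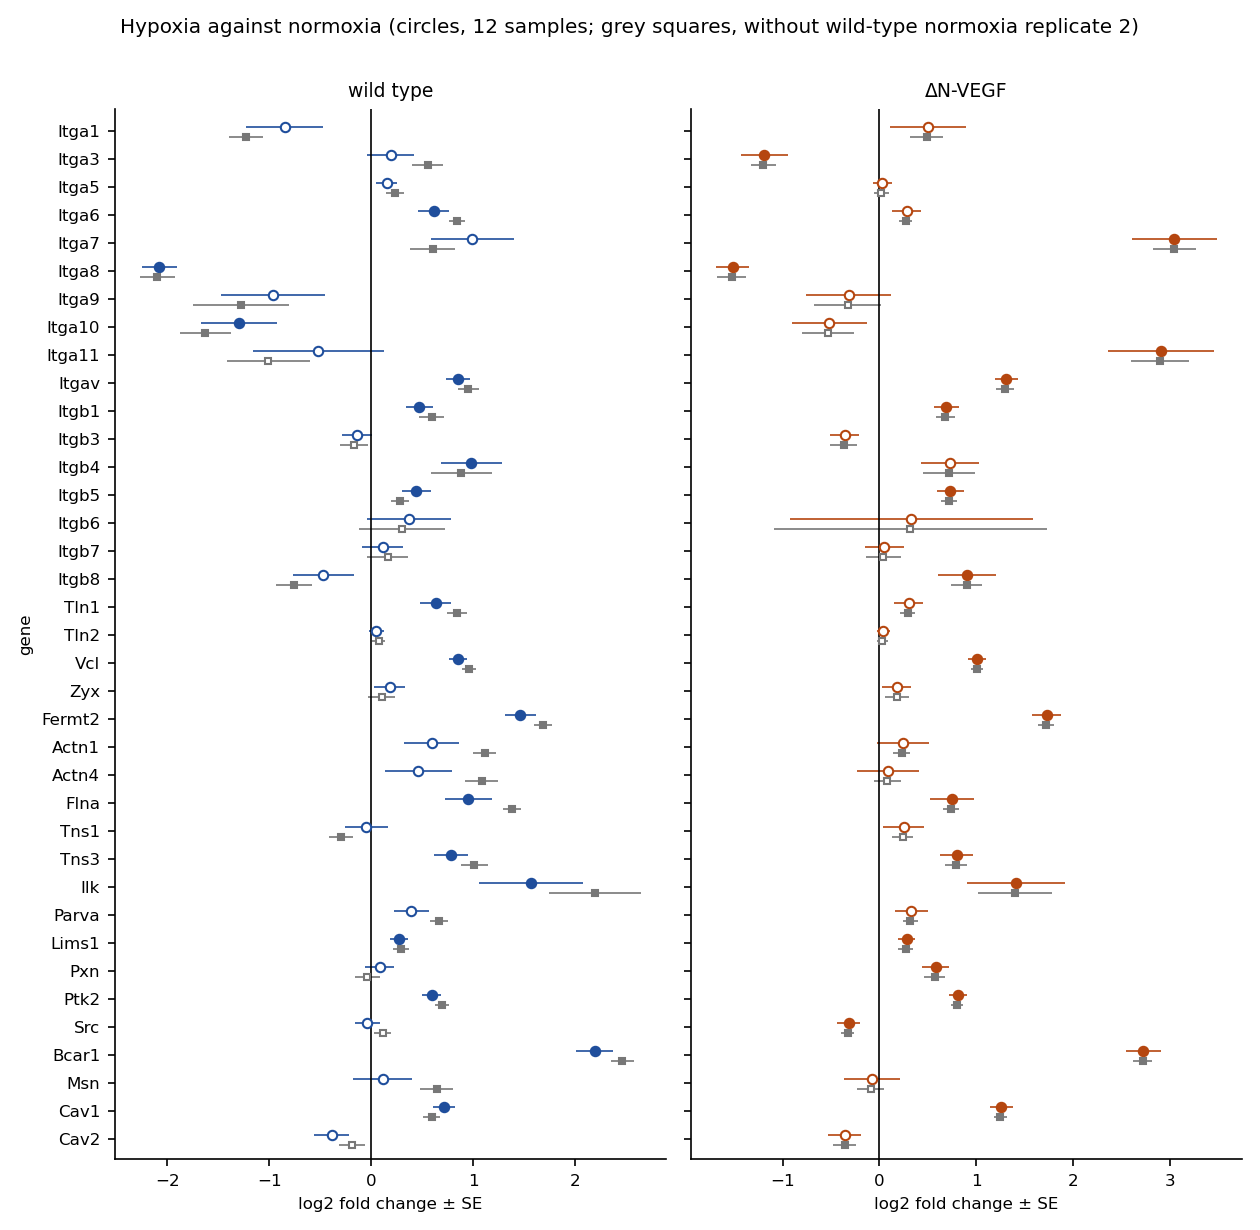
Log2 fold change of hypoxia over normoxia for each tested member in wild-type and ΔN-VEGF cells, with bars of 1 SE; circles use 12 samples and are filled where called, and grey squares leave out wild-type normoxia replicate 2. Bcar1 lies at 2.19 and 2.73, the highest of the wild-type values, and Itga8 at −2.08 and −1.52.

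Of the 4 kinases and adaptors, Bcar1 changed most. Bcar1 (ENSMUSG00000031955, chr8:111710474-111743809, minus strand, GRCm38) encodes p130Cas, a docking protein that is phosphorylated when the cell is stretched or adheres. Its level was 77.5, 115 and 67.5 CPM in wild-type normoxia and 374, 432 and 382 in wild-type hypoxia. The ΔN-VEGF samples had 85.8, 104 and 84.6 CPM in normoxia and 624, 624 and 568 in hypoxia. Every hypoxia sample thus lay above every normoxia sample, and the ΔN-VEGF hypoxia samples above those of wild-type hypoxia. This was a rise of 4.57-fold in wild-type cells (log2 2.19 ± 0.18 SE, edgeR adjusted p = 5.2e-06) and of 6.62-fold in ΔN-VEGF cells (2.73 ± 0.18, 6e-07). Without wild-type normoxia replicate 2 the log2 values were 2.46 and 2.72. RefSeq lists 2 promoters of Bcar1 on GRCm38.p6. The 250 bases before each start are shown, because Bcar1 is the member with the strongest rise called in both lines, with ACGTG or GCGTG, the letters of the core hypoxia response element, in capitals on either strand (CACGT and CACGC are their reverse complements). The first window is chr8:111743850-111744099 and the second chr8:111732137-111732386, both read on the minus strand.
Bcar1 upstream start: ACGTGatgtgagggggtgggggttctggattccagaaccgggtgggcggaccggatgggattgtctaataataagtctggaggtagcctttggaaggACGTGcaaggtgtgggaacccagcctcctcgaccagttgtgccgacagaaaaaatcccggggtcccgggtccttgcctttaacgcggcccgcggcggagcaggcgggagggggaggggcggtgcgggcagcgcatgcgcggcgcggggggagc
Bcar1 inner start: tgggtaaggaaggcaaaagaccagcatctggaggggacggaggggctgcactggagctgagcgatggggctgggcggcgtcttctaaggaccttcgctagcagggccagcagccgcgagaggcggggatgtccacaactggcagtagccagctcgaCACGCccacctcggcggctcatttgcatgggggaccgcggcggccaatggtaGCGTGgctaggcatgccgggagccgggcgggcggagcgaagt

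Ptk2, the kinase that docks Bcar1 at adhesions, rose from 103 ± 10.8 to 156 ± 2.98 CPM in wild-type cells (mean ± SD, n = 3; log2 0.59 ± 0.09 SE, edgeR adjusted p = 0.00035). In ΔN-VEGF cells it rose from 99.3 ± 3.22 to 174 ± 4.32 (0.81, 2.2e-05). Src, the kinase that works with Ptk2, was 75.1, 95.5 and 69.5 CPM in wild-type normoxia and 76.7, 80.6 and 75.7 in hypoxia, and these overlapped. In ΔN-VEGF cells Src went from 67.8, 64.7 and 65.2 to 50.7, 57.8 and 50.2 CPM without overlap, a fall to 0.803 of the normoxia level (log2 −0.32 ± 0.12, adjusted p = 0.039). That call was lost with RLE size factors in place of TMM (−0.30). Pxn, the paxillin gene, rose in ΔN-VEGF cells from 70.7 ± 11.6 to 105 ± 1.56 CPM (0.58, 0.0062; 0.17 and 0.45 with total counts, which ended the call), while in wild-type cells it stood at 87.9 ± 14.4 and 92.7 ± 8.31.

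Among the 10 tested genes that link integrins to actin, 5 were higher in wild-type hypoxia (Fermt2, Vcl, Flna, Tln1 and Tns3) and 4 in ΔN-VEGF hypoxia (the same without Tln1), and the others were not called with the 12 samples. Of all tested genes, 18.2% were higher in wild-type and 26.9% in ΔN-VEGF hypoxia. Fermt2 (ENSMUSG00000037712, chr14:45458795-45530118, minus strand) encodes a kindlin, which activates integrins together with talin. Its CPM was 84, 123 and 82 in wild-type normoxia, 271, 253 and 268 in wild-type hypoxia, 112, 135 and 112 in ΔN-VEGF normoxia and 388, 400 and 402 in ΔN-VEGF hypoxia. The hypoxia samples lay apart from normoxia in both lines, 2.75-fold higher in wild-type cells (log2 1.46 ± 0.15, edgeR adjusted p = 2.5e-05; 1.68 without replicate 2) and 3.31-fold higher in ΔN-VEGF cells (1.73 ± 0.15, 3.9e-06). Fermt1, the kindlin of epithelia, had no count, so Fermt2 was the one of these kindlin genes with reads.

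Vcl (ENSMUSG00000021823, chr14:20929398-21033676, plus strand) encodes vinculin, which binds talin and actin where the adhesion is under load. It stood at 277, 333 and 272 CPM in wild-type normoxia and at 534, 519 and 540 in hypoxia, and in ΔN-VEGF cells at 372, 349 and 378 and at 722, 783 and 712. The 4 groups did not overlap, and each line rose in hypoxia: 1.81-fold in wild-type (log2 0.85 ± 0.09, edgeR adjusted p = 4.5e-05) and 2.02-fold in ΔN-VEGF cells (1.01 ± 0.09, 6.8e-06). Vcl shares 25.5% of its exon bases with Ap3m1 on the other strand, and reads of the 2 genes could not be separated by strand here. Flna encodes filamin A, which crosslinks actin and binds β tails. Its CPM was 1524, 3079 and 1504 in wild-type normoxia, 3711, 4381 and 3712 in wild-type hypoxia, 2562, 2855 and 2558 in ΔN-VEGF normoxia and 4358, 4709 and 4311 in ΔN-VEGF hypoxia. Wild-type normoxia replicate 2 lay between the other 2 samples of its group and the hypoxia samples, and its omission moved the wild-type log2 fold change from 0.95 ± 0.23 (adjusted p = 0.0082) to 1.38. In the fit of the 6 wild-type samples alone this call was lost. In ΔN-VEGF cells the rise was 0.75 ± 0.23 (0.019), which total-count scaling took to 0.35 (0.12).

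Talin 1 (Tln1), the main talin of fibroblasts, rose from 513 ± 119 to 791 ± 75.7 CPM in wild-type cells (log2 0.63, edgeR adjusted p = 0.007), against 633 ± 52.2 and 779 ± 45.9 in ΔN-VEGF cells, where it was not called with the 12 samples (0.29 and 0.0077 without replicate 2). The wild-type call was lost in the fit of the 6 wild-type samples alone. Tns3, a tensin, rose in both lines (0.78 and 0.80; adjusted p = 0.0044 and 0.0024). Tln2, Zyx, Tns1, Actn1 and Actn4 were called in neither line with the 12 samples. Group means of Tln2, the second talin, were 104 ± 0.791 to 116 ± 4.46 CPM, and those of Zyx, the zyxin gene, 1092 ± 134 to 1291 ± 105. For the α-actinins in wild-type cells this rested on normoxia replicate 2: Actn1 and Actn4 were 2.3-fold and 2.58-fold above the mean of replicates 1 and 3 there, and without it they rose by 1.11 (adjusted p = 2.4e-06) and 1.08 (0.00012) in wild-type hypoxia. Tns1, a tensin, was then called lower in wild-type cells (−0.30, 0.049), and in ΔN-VEGF cells Actn1 rose (0.23, 0.045) while Actn4 was not called (0.08, 0.63). Acta2, a smooth muscle actin also made by contractile fibroblasts, moved with this group. It stood at 180, 1014 and 161 CPM in wild-type normoxia, at 2692 to 3112 in wild-type hypoxia, at 476 to 901 in ΔN-VEGF normoxia and at 2480 to 3033 in ΔN-VEGF hypoxia. Of 5 smooth muscle markers 3 rose in each line (Acta2, Cnn1 and Tagln), beside 18.2% (wild type) and 26.9% (ΔN-VEGF) of all tested genes. None of the 5 was at 0 in a group, and their sum was 169 to 1020 CPM in wild-type normoxia, 2700 to 3130 in wild-type hypoxia, 479 to 903 in ΔN-VEGF normoxia and 2500 to 3050 in ΔN-VEGF hypoxia. Their part in the result was not tested.

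For comparison with Bcar1, the 250 bases before the RefSeq start of Fermt2 (chr14:45530066-45530315, minus strand) and of Vcl (chr14:20929148-20929397, plus strand) are given with the same marking. The Fermt2 window held neither motif and that of Vcl held 1 match.
Fermt2: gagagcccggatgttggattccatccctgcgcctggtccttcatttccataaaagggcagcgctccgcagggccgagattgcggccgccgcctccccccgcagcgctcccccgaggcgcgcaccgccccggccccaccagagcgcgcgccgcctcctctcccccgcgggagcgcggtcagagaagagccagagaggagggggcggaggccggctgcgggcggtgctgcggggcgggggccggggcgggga
Vcl: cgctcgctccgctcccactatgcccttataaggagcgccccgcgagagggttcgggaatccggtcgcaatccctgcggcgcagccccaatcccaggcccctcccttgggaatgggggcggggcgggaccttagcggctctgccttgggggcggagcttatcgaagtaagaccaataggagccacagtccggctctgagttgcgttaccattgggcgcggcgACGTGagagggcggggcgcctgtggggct

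The search covered the window from 250 bases before to 50 after each start, on both strands. RefSeq promoters were found for 32 members, 39 promoters in all, and 18 of them (46.2%) held ACGTG or GCGTG, against 43.8% of 32851 mouse promoters. ACGTG was in 25.6% of the member promoters and 19.6% of all, and GCGTG in 25.6% and 32.4%. These shares describe letters in a window and were not read as binding sites.

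The complex of integrin-linked kinase, PINCH and parvin bridges β tails and actin, and 2 of its 3 genes rose in each line. Lims1, which encodes PINCH1, changed little: from 56.3 ± 1.16 to 68.1 ± 5.69 CPM in wild-type cells (log2 0.27, edgeR adjusted p = 0.03) and from 64.8 ± 4.55 to 78.6 ± 1.42 in ΔN-VEGF cells (0.28, 0.019). Scaling by total counts ended both calls, at 0.05 (0.7) in the wild type and, reversed, at −0.12 (0.28) in ΔN-VEGF cells, and each was lost in 5 of the 12 fits that left out 1 sample. Ilk stood at 0.548, 1.63 and 0.655 CPM in wild-type normoxia and at 2.54, 3.6 and 2.22 in hypoxia, and in ΔN-VEGF cells at 0.646, 1.85 and 0.466 and at 2.29, 2.73 and 2.85. No normoxia sample reached a hypoxia sample (2.95-fold, log2 1.56 ± 0.51, adjusted p = 0.032; 2.66-fold, 1.41 ± 0.51, 0.035), but the size rested on single libraries. The wild-type rise was 4.57-fold (2.19) without wild-type normoxia replicate 2, and that of ΔN-VEGF cells 2.22 on the log2 scale without their own normoxia replicate 2. The calls were lost in 5 and 6 of the 12 fits that left out 1 sample (adjusted p up to 0.11 and 0.12), and total counts ended the second (1.03, 0.077). Exons of Rrp8 and Taf10 on the other strand cover 89.7% of the Ilk exon bases, so a low count for Ilk is uncertain as a measure of its RNA. Parva, the parvin gene, was called in neither line with the 12 samples. Without replicate 2 it was called higher in both, with log2 changes of 0.66 in wild-type hypoxia (adjusted p = 3.4e-05) and 0.32 in ΔN-VEGF hypoxia (0.0022).

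Of the membrane proteins, Cav1 rose in both lines while Msn and Cav2 passed in neither with the 12 samples. Cav1 (ENSMUSG00000007655, chr6:17306335-17341452, plus strand), the coat protein of caveolae, was at 570, 437 and 593 CPM in wild-type normoxia and at 915, 800 and 896 in hypoxia. In ΔN-VEGF cells it was at 580, 635 and 585 CPM and then at 1432, 1415 and 1450, above each wild-type hypoxia sample. The rise was 1.63-fold (log2 0.71 ± 0.11, edgeR adjusted p = 0.00066; 0.59 without replicate 2) and 2.39-fold (1.26 ± 0.12, 6.4e-06). Its first RefSeq promoter (chr6:17306085-17306334, plus strand) held 1 match and a second one none.
Cav1: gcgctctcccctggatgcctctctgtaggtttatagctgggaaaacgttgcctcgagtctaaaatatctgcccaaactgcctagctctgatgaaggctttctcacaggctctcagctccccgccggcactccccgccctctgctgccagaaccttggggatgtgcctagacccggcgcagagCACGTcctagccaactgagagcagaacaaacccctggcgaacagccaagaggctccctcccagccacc

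Cav2, its partner in the caveolar coat, stood at 41, 64 and 48.2 CPM in wild-type normoxia, 41.8, 34.6 and 40.4 in wild-type hypoxia, 46.6, 62.5 and 45.6 in ΔN-VEGF normoxia and 41.3, 39.9 and 39.7 in ΔN-VEGF hypoxia. In both lines normoxia replicate 2 was the highest sample, and the log2 fold changes were −0.39 (adjusted p = 0.094) and −0.36 (0.098). Without replicate 2 the second of these passed (−0.36, 0.016) and the first did not (−0.19, 0.25). Msn encodes moesin, which ties the membrane to actin. It was 741, 1697 and 723 CPM in wild-type normoxia, 1140, 1119 and 1153 in wild-type hypoxia, 865, 1341 and 865 in ΔN-VEGF normoxia and 930, 1036 and 929 in ΔN-VEGF hypoxia. In both lines normoxia replicate 2 lay above every hypoxia sample and replicates 1 and 3 below. The wild-type log2 fold change was 0.11 (adjusted p = 0.8), and 0.64 (0.0036) without wild-type normoxia replicate 2.

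**Figure D4:**
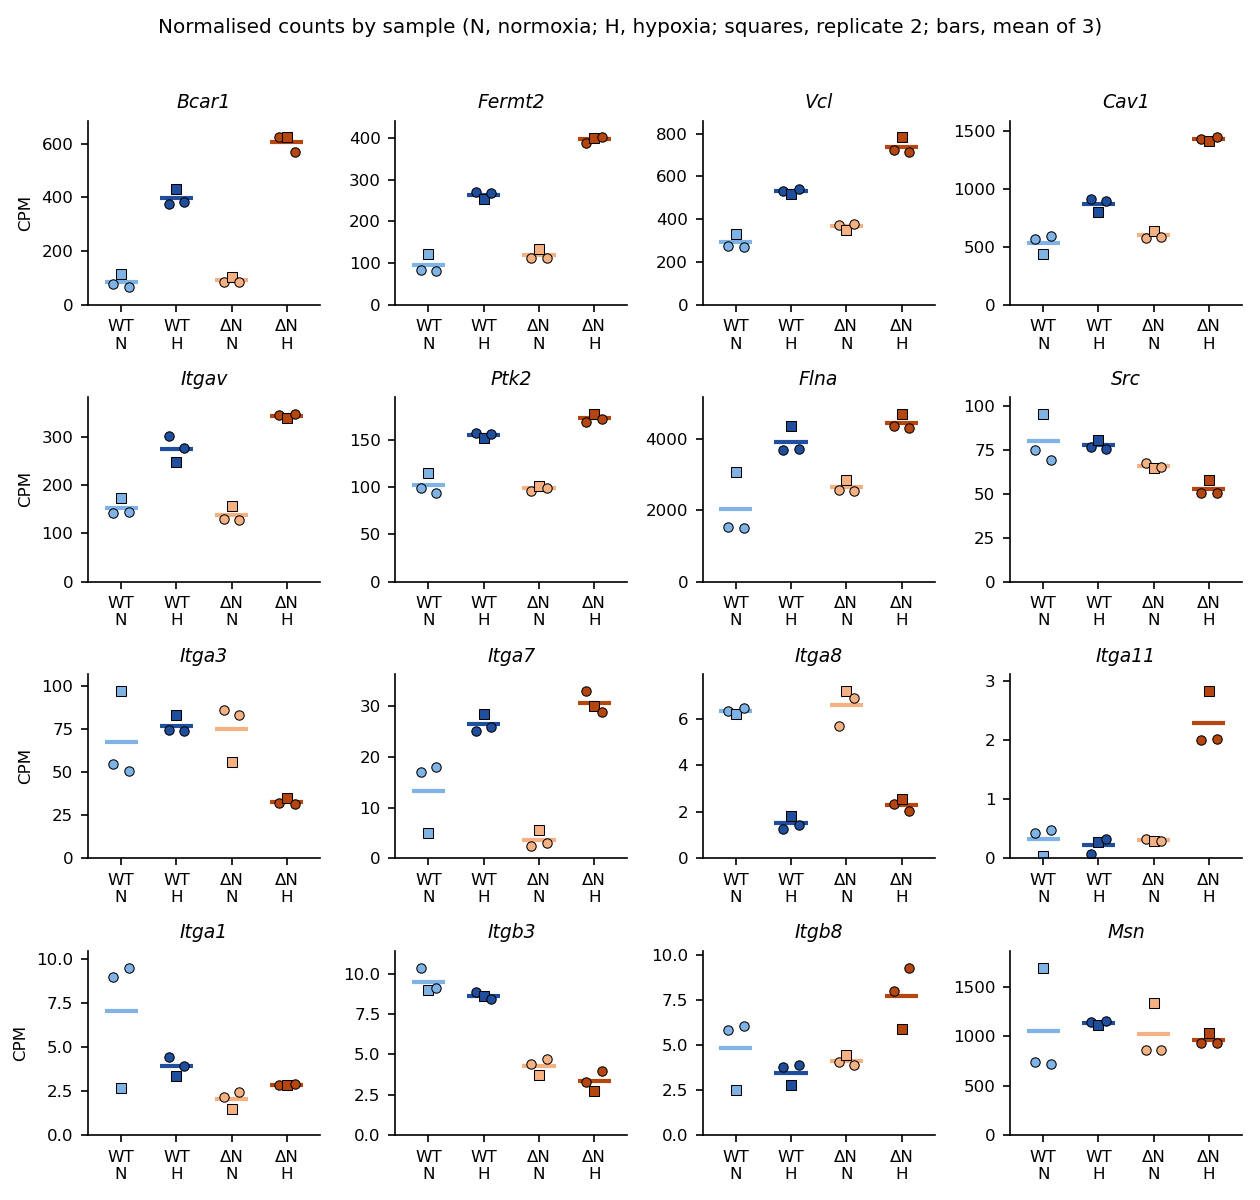
CPM of 16 members in each of the 12 samples on linear axes from 0, with squares for replicate 2 and a bar at the mean of each group. Bcar1 and Fermt2 separate hypoxia from normoxia in both lines, Itgb3 separates the lines, and Itga3 is lowest in ΔN-VEGF hypoxia, at 31.6 to 35 CPM.

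The α subunits moved in both directions. Of the 10 tested, the wild-type line had 2 rises and 2 falls, beside 18.2% and 18.3% of all tested genes. The ΔN-VEGF line had 3 and 2, beside 26.9% and 26.4%, so the counts lay near the shares of all genes. Itgav (ENSMUSG00000027087, chr2:83724397-83806916, plus strand), the subunit of vitronectin receptors, was 142, 173 and 144 CPM in wild-type normoxia, 302, 248 and 277 in wild-type hypoxia, 130, 157 and 128 in ΔN-VEGF normoxia and 345, 340 and 348 in ΔN-VEGF hypoxia. Hypoxia lay above normoxia in every sample of both lines, by 1.8-fold in wild-type (log2 0.85 ± 0.12, edgeR adjusted p = 2e-04; 0.95 without replicate 2) and 2.48-fold in ΔN-VEGF cells (1.31 ± 0.12, 5e-06). Itga6, a laminin receptor subunit, was 77.6, 122 and 86.4 CPM in wild-type normoxia and 148, 138 and 151 in hypoxia, a rise of 0.61 ± 0.15 (0.0071; 0.84 without replicate 2). The wild-type call was lost in the fits of the 6 wild-type samples alone, with and without a replicate block. In ΔN-VEGF cells Itga6 was 74.3, 86.9 and 81.5 and then 95.5, 100 and 99.2 CPM, and was called without replicate 2 (0.27, 0.0054) but not with it (0.28, 0.13).

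Itga8 (chr2:12106632-12301922, minus strand), a subunit that binds RGD ligands such as nephronectin, fell in both lines. It was 6.35, 6.2 and 6.49 CPM in wild-type normoxia, 1.25, 1.82 and 1.45 in wild-type hypoxia, 5.71, 7.22 and 6.89 in ΔN-VEGF normoxia and 2.32, 2.54 and 2.05 in ΔN-VEGF hypoxia. Hypoxia samples were all below normoxia samples, at 0.236 of the level in wild-type (log2 −2.08 ± 0.17, edgeR adjusted p = 5e-06; −2.10 without replicate 2) and 0.349 in ΔN-VEGF cells (−1.52 ± 0.17, 2.2e-05). Itga10, a collagen receptor subunit, was low throughout: 2.58, 1.04 and 2.7 CPM in wild-type normoxia, 0.779, 1.1 and 0.713 in wild-type hypoxia, 1.23, 0.64 and 1 in ΔN-VEGF normoxia and 0.595, 0.772 and 0.644 in ΔN-VEGF hypoxia. The fall in wild-type cells passed the test (−1.30 ± 0.37, 0.017) although replicate 2 brought normoxia into the hypoxia range, and 33.5% of the exon bases of Itga10 are shared with Gm42957 on the same strand.

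Itga7, a laminin receptor subunit best known from muscle, and Itga11, a collagen receptor subunit, rose in ΔN-VEGF cells. Itga7 (chr10:128933818-128958282, plus strand) went from 2.48, 5.68 and 2.94 CPM in ΔN-VEGF normoxia to 33.1, 30 and 28.9 in hypoxia, 8.29-fold higher (log2 3.05 ± 0.44, edgeR adjusted p = 0.00017). In wild-type cells it was 17.1, 4.97 and 18 CPM in normoxia and 25.2, 28.6 and 26 in hypoxia (0.99, adjusted p = 0.078; 0.60 and 0.034 without replicate 2). In hypoxia the lines lay next to each other, a difference of 0.21 that was not called, while in normoxia wild-type replicates 1 and 3 were above, and replicate 2 within, the ΔN-VEGF range. Itga11 (chr9:62677826-62783982, plus strand) had 19, 2 and 25 counts in wild-type normoxia, 3, 8 and 13 in wild-type hypoxia, 15, 12 and 12 in ΔN-VEGF normoxia and 64, 88 and 66 in ΔN-VEGF hypoxia. Its level was 0.323, 0.284 and 0.294 CPM in ΔN-VEGF normoxia and 2, 2.83 and 2.02 in hypoxia, the highest of the 4 groups (7.53-fold, 2.91 ± 0.55, 0.0011).

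Itga3 (chr11:95044474-95076801, minus strand), a laminin receptor subunit, moved the other way in ΔN-VEGF cells. Its CPM was 86.1, 55.8 and 83.2 in ΔN-VEGF normoxia and 32.1, 35 and 31.6 in hypoxia, a fall to 0.438 of the normoxia level (log2 −1.19 ± 0.24, edgeR adjusted p = 0.0014). In wild-type cells it was 54.9, 97.1 and 50.7 in normoxia and 74.1, 82.9 and 73.7 in hypoxia. Wild-type replicate 2 was above, and replicates 1 and 3 below, all hypoxia samples, and without it Itga3 was called higher in wild-type hypoxia (0.55, 0.0072). Itga5 was called in neither line, at 255 ± 22.8 and 282 ± 31.5 CPM in wild-type and 237 ± 5.36 and 242 ± 12.2 in ΔN-VEGF cells, and Itga1 and Itga9 were called in neither with the 12 samples. Without replicate 2, Itga5 was called higher in wild-type cells (0.23, 0.043) and Itga9, a receptor subunit for tenascin, lower (−1.28, 0.035). Itga1 was then lower in wild-type hypoxia (−1.23, 4.4e-05) and higher in ΔN-VEGF hypoxia (0.49, 0.025).

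Of the 7 β subunits, 3 rose in each line with the 12 samples, beside 18.2% (wild type) and 26.9% (ΔN-VEGF) of all tested genes. Most of these calls of β subunits did not hold under total-count scaling. The wild-type values then were 0.25 (adjusted p = 0.077) for Itgb1, 0.74 (0.084) for Itgb4 and 0.19 (0.41) for Itgb5, and each of these calls was also lost in 3 or 4 of the 12 fits that left out 1 sample. In ΔN-VEGF cells they were 0.33 (0.14) for Itgb5 and 0.51 (0.21) for Itgb8, while Itgb1 kept its call (0.29, 0.035). Itgb1 went from 733 ± 101 to 1013 ± 89.7 CPM in wild-type cells (log2 0.47, edgeR adjusted p = 0.019) and from 723 ± 122 to 1164 ± 30.6 in ΔN-VEGF cells (0.69, 0.0014). Itgb5, which pairs with Itgav, went from 98.5 ± 20.6 to 133 ± 8.55 (0.44, 0.032; 0.28 without replicate 2) and from 103 ± 9.29 to 172 ± 8.55 (0.73, 0.0013). Itgb4, the laminin receptor subunit of hemidesmosomes, was 77.4, 57.6 and 68.3 CPM in wild-type normoxia and 126, 143 and 130 in hypoxia, 1.97-fold higher without overlap (0.98 ± 0.30, 0.024; 0.88 without replicate 2). In ΔN-VEGF cells it was 115, 40.5 and 106 and then 158, 131 and 145 CPM, and was called without replicate 2 (0.72, 0.029) but not with it (0.73, 0.057). Itgb8, which with Itgav binds latent TGF-β, was 4.07, 4.43 and 3.9 CPM in ΔN-VEGF normoxia and 8.02, 5.92 and 9.32 in hypoxia, 1.88-fold higher (0.91 ± 0.30, 0.024). In wild-type cells Itgb8 stood at 5.87, 2.53 and 6.07 in normoxia and 3.79, 2.77 and 3.87 in hypoxia, which overlapped, and was called lower without replicate 2 (−0.76, 0.0036). Itgb3, Itgb6 and Itgb7 were called in neither line with the 12 samples, and Itgb3 was called lower in ΔN-VEGF cells without replicate 2 (−0.37, 0.036). Itgb7, the partner of Itga4 on lymphocytes, had group means of 11.9 ± 3.66 to 13.4 ± 1.17 CPM.

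Of 53 further adhesion genes, 52 were tested. In wild-type hypoxia 19 rose and 7 fell with a median of 0.26, beside 18.2% and 18.3% of all tested genes. In ΔN-VEGF hypoxia 22 rose and 10 fell with a median of 0.33, beside 26.9% and 26.4%. Without replicate 2 these counts were 30 and 9 (27.1% and 26.9% of all genes), and 27 and 10 (32.8% and 34.3%). Lims2, which encodes the second PINCH protein, had the largest rise of the list: from 1.51, 0.557 and 1.35 CPM to 43, 54.4 and 44.4 in wild-type cells and from 0.904, 0.758 and 0.784 to 70.1, 72.5 and 63.9 in ΔN-VEGF cells. These were 41.3-fold and 84-fold rises (log2 5.37 and 6.39; edgeR adjusted p = 2.3e-07 and 4.7e-08). Tgfb1i1, a paxillin relative known as Hic-5, rose from 87.5 ± 3.6 to 329 ± 28.9 CPM and from 97.5 ± 8.94 to 359 ± 20.3 (1.91 and 1.88). Of 18 integrin ligands, 7 were raised and 4 lowered by hypoxia in the wild type, and 6 and 4 in ΔN-VEGF cells (8 and 6, and 8 and 5, without replicate 2), to be read against the same shares of all genes. Spp1, which encodes osteopontin, fell from 677, 257 and 698 to 57.1, 50.8 and 57.4 CPM in wild-type cells and from 675, 336 and 679 to 49.2, 46.8 and 48.8 in ΔN-VEGF cells (−3.30 and −3.54). Ctgf, a matricellular ligand, had 26.1, 215 and 25.6 CPM in wild-type normoxia and 677, 680 and 683 in hypoxia (2.94, adjusted p = 0.014; 4.72 without replicate 2). Of 7 integrins of blood cells 5 were tested, and the call made was Itgad in ΔN-VEGF cells, with at most 16 counts in a sample, which passed the filter through the 3 ΔN-VEGF hypoxia samples alone.

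The second question was how ΔN-VEGF cells differed from wild-type cells in normoxia. Here 0 of 37 members were called higher and 4 lower (Itga1, Itga7, Itgb3 and Itgb6), beside 1.39% and 2.97% of all tested genes. Itgb6 passed the filter on low counts through 3 wild-type samples and no ΔN-VEGF sample, so a difference between the lines was built into its selection, and 3 lower members are left without it. The members' median was −0.02 and that of all genes −0.03. At an unadjusted p below 0.05 edgeR had 2 members higher and 7 lower, beside 6.17% and 12.8% of all genes. DESeq2 called 1 higher and 5 lower, beside 3.15% and 6.77%. In this comparison the samples numbered 2 deviated together from their group means (correlation 0.5). Samples 1 and 3 correlated between the lines about as much with the other number (0.35 and 0.36) as with their own (0.38 and 0.36). With replicate number as a block in the fit of 12 samples, 0 members were called higher and 3 lower, beside 1.55% and 2.82% of all genes, and Itga7 was lost (adjusted p = 0.072). A block within the 6 samples of the comparison called 0, with 5 members higher and 5 lower at an unadjusted p below 0.05, beside 7.03% and 9.13%. Without wild-type normoxia replicate 2, 11 members were higher and 8 lower, beside 25.7% and 23.2% of all genes, and the 4 calls remained.

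Itgb3 (chr11:104608000-104670476, plus strand) encodes a subunit that pairs with Itgav in a vitronectin receptor. Its CPM was 10.4, 9.03 and 9.11 in wild-type and 4.39, 3.72 and 4.75 in ΔN-VEGF normoxia. The lines did not overlap, and ΔN-VEGF cells had 0.451 of the wild-type level (log2 −1.15 ± 0.15, edgeR adjusted p = 0.0027; −1.17 without replicate 2). Its call was lost in the fits of the 6 samples of the comparison. Itgb6, an epithelial partner of Itgav, had 9, 9 and 15 counts in wild-type and 1, 0 and 0 in ΔN-VEGF normoxia. This is a wild-type to ΔN-VEGF ratio of 30.8 with a 95% exact interval of 5.15 to 1250, which covers counting error alone. Since the filter chose Itgb6 on its wild-type samples, this is a description. With no filter on low counts its edgeR adjusted p was 0.0061.

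Itga1 (chr13:114953096-115101964, minus strand), a collagen receptor subunit, was 8.97, 2.69 and 9.52 CPM in wild-type and 2.17, 1.47 and 2.43 in ΔN-VEGF normoxia. All wild-type samples were higher, replicate 2 by the least, and the level in ΔN-VEGF cells was 0.287 of that in wild-type cells (log2 −1.80 ± 0.39, edgeR adjusted p = 0.028; −2.18 without replicate 2). Itga1 in hypoxia was 4.44, 3.36 and 3.95 CPM in wild-type and 2.82, 2.86 and 2.88 in ΔN-VEGF cells. For Itga7, at 17.1, 4.97 and 18 against 2.48, 5.68 and 2.94 CPM, the samples numbered 2 overlapped and the log2 difference was −1.85 ± 0.43 (0.036; −2.24 without replicate 2). Of the 12 fits that left out 1 sample, the Itga1 call held without wild-type normoxia or wild-type hypoxia replicate 2 and was lost in the other 10 (adjusted p up to 0.11), and the Itga7 call held without either normoxia replicate 2 and was lost in the other 10 (up to 0.15). Without wild-type normoxia replicate 2, the genes that joined included Actn4 (1.08, 0.00021), Actn1 (0.98, 2.5e-05), Flna (0.82, 2.2e-05), Vcl (0.43, 0.00028) and Fermt2 (0.54, 0.0003), all higher in ΔN-VEGF cells. Itga3, Tln1, Parva, Bcar1, Lims1 and Msn also joined as higher, and Itga10, Itgb8, Pxn and Tns1 as lower.

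**Figure D5:**
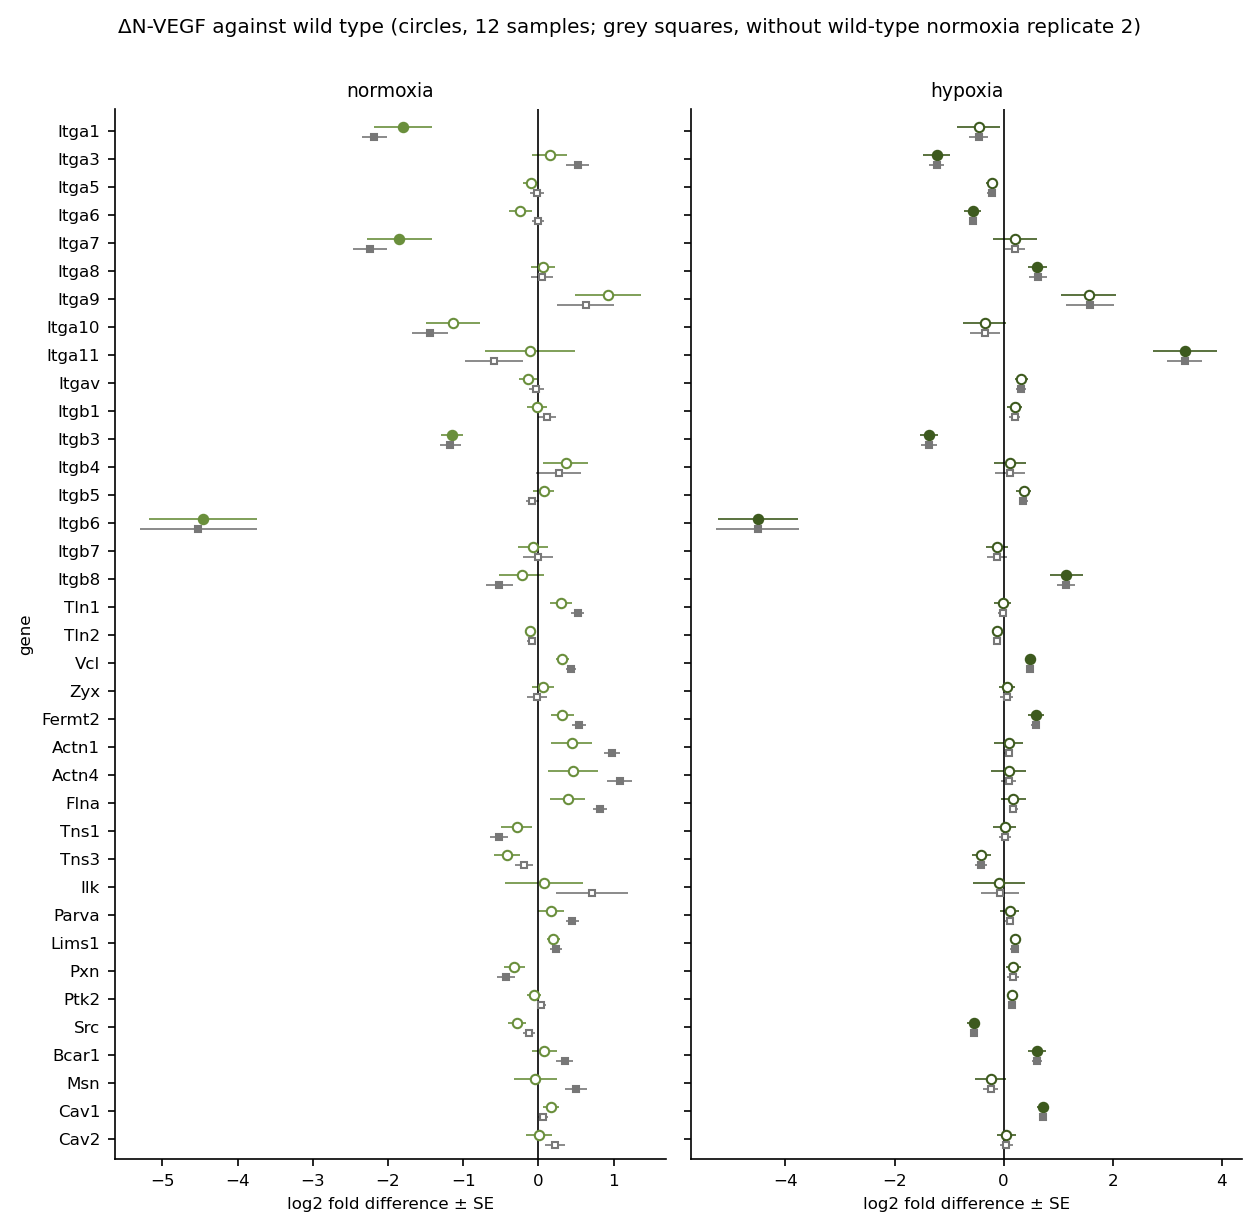
Log2 difference of ΔN-VEGF from wild-type cells for each tested member in normoxia and in hypoxia, with bars of 1 SE; circles use 12 samples and are filled where called, and grey squares leave out wild-type normoxia replicate 2. Itgb3 lies at −1.15 in normoxia and −1.37 in hypoxia, while Itga11 lies near 0 in normoxia and at 3.32 in hypoxia.

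The third question was how the lines differed in hypoxia, where 7 members were higher and 5 lower in ΔN-VEGF cells, beside 10.8% and 9.36% of all tested genes. The median was 0.09 over the members and −0.01 over all genes. Itga11, Itgb8, Cav1, Itga8, Bcar1, Fermt2 and Vcl were higher, and Itgb6, Itgb3, Itga3, Itga6 and Src lower, of which 4 are left without Itgb6. Without wild-type normoxia replicate 2, which enters this comparison through the filter, the scaling and the shared estimate of the spread, 12 were higher and 8 lower, beside 21.2% each of all genes, and all 12 calls remained. Scaling by total counts moved the median of all genes to −0.23, and the members, now with a median of −0.13, split into 5 higher and 8 lower, beside 4.57% and 22.2% of all genes. The calls of Itga8 (0.40, adjusted p = 0.12) and Itgb8 (0.93, 0.062) ended there.

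Among the members that passed the filter in samples of both lines, the largest log2 difference was that of Itga11, at 0.0779, 0.274 and 0.331 CPM in wild-type and 2, 2.83 and 2.02 in ΔN-VEGF hypoxia. The lines did not overlap (log2 difference 3.32 ± 0.59, edgeR adjusted p = 0.0033). Itgb8 was 2.22-fold higher (1.15 ± 0.30, 0.021), with 3.79 CPM or less in 2 wild-type samples, 3.87 in the other, and 5.92 to 9.32 in ΔN-VEGF cells. Itgb3 was again lower, at 8.85, 8.63 and 8.43 CPM in wild-type and 3.32, 2.73 and 3.96 in ΔN-VEGF hypoxia (−1.37 ± 0.16, 0.00033). Itgb6 had 12, 7 and 14 counts in wild-type and 0, 1 and 0 in ΔN-VEGF hypoxia, a ratio of 29.5 (95% exact interval 4.94 to 1200), again a description of a gene that passed through wild-type samples alone (edgeR adjusted p = 0.0019 with no filter).

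The other members called in hypoxia were of several classes. Itga3, at 73.7 to 82.9 CPM in wild-type and 31.6 to 35 in ΔN-VEGF hypoxia, was at 0.428 of the wild-type level (log2 −1.23 ± 0.24, edgeR adjusted p = 0.0051). Itga6, the other laminin receptor subunit at a high level, was also lower (0.674 of wild type, −0.57 ± 0.15, 0.02), and so was Src (0.682, −0.55 ± 0.12, 0.0079). Cav1 was 1.65-fold (0.72 ± 0.11, 0.002), Bcar1 1.53-fold (0.61 ± 0.17, 0.03), Fermt2 1.5-fold (0.59 ± 0.15, 0.017) and Vcl 1.39-fold higher (0.48 ± 0.09, 0.0056). Itga8, which fell in both lines, was 1.54-fold higher in ΔN-VEGF than in wild-type hypoxia (0.62 ± 0.17, 0.028). In each of these called genes no sample of one line lay within the range of the other, and this was also so for members that were not called, such as Itgav, Itgb5, Ptk2 and Tns3. Without replicate 2, Itga9, Itgav, Itgb5, Ptk2 and Lims1 were called higher as well and Itga1, Itga5 and Tns3 lower. The calls of Itga6, Itga8, Itgb8, Fermt2 and Bcar1 were lost in 4 to 6 of the 12 fits that left out 1 sample, with adjusted p-values of up to 0.12.

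Among the 52 further adhesion genes tested, 3 were higher and 1 lower in ΔN-VEGF normoxia and 9 higher and 5 lower in hypoxia, beside 1.39% and 2.97%, and 10.8% and 9.36%, of all tested genes. Without replicate 2 the counts were 18 and 11 in normoxia (25.7% and 23.2% of all genes) and 11 and 10 in hypoxia (21.2% each), the latter near the share of all genes. Tns4, a tensin, was higher in both, at 1.57, 0.372 and 1.6 against 4.87, 2.53 and 5.34 CPM in normoxia and 1.35, 1.34 and 1.12 against 7.99, 9.17 and 7.36 in hypoxia (log2 1.84 and 2.69, edgeR adjusted p = 0.039 and 0.0022). Rap1b, a small GTPase that recruits talin to integrins, was lower in normoxia, with 227, 372 and 249 against 167, 157 and 171 CPM (−0.78). Of the 18 ligands, 2 were higher and 1 lower in normoxia and 4 higher and 2 lower in hypoxia (6 and 4, and 7 and 4, without replicate 2), beside the same shares of all genes. Npnt, which encodes nephronectin, was higher in both conditions: 14.3, 18.7 and 13.3 against 33.1, 35 and 32.6 CPM in normoxia and 25.6, 25.8 and 27 against 44.7, 53.6 and 45.9 in hypoxia (1.12 and 0.88). Fn1, the fibronectin gene, was at 9086 ± 391 CPM in wild-type and 15555 ± 338 in ΔN-VEGF hypoxia (0.78).

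The last comparison asked whether hypoxia changed a gene differently in the 2 lines, through the interaction term. With 12 samples, 0 members had a more positive response in ΔN-VEGF cells and 1 had a more negative one, beside 2.21% and 1.15% of all tested genes. At an unadjusted p below 0.05 the counts were 8 and 1, beside 12.7% and 8.34%, and DESeq2 called 5 and 1, beside 7.70% and 3.46%. The 1 gene was Itga3, which fell by 1.19 on the log2 scale in ΔN-VEGF cells and had a value of 0.19 in wild-type cells (difference −1.38 ± 0.33, edgeR adjusted p = 0.048; −1.75 and 2.5e-05 without wild-type normoxia replicate 2). With replicate number as a block in the fit of 12 samples the call was lost (−1.42, adjusted p = 0.059). Of the 12 fits that left out 1 sample, the call held without wild-type or ΔN-VEGF normoxia replicate 2 and was lost in the other 10, with adjusted p-values of up to 0.13. Itga11 (3.43, adjusted p = 0.051), Itga7 (2.06, 0.078), Cav1 (0.55, 0.088) and Itgb8 (1.38, 0.095) did not pass. With no filter on low counts, where 1.47% of all genes were called, Itga11 (3.35, edgeR adjusted p = 0.026) and Itga7 (1.97, 0.035) passed. Cav1 (0.26) and Itgb8 (0.1) did not pass there either.

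Without wild-type normoxia replicate 2, 10 members had a more positive and 9 a more negative response in ΔN-VEGF cells, beside 21.4% and 23.0% of all genes. Those more positive included Itga11 (log2 3.92, edgeR adjusted p = 7.2e-05), Itga7 (2.44, 4.7e-05), Itga1 (1.72, 0.00012), Itgb8 (1.66, 0.00018) and Cav1 (0.66, 0.0002), and the others were Itga10, Itgav, Itgb5, Pxn and Tns1. Those more negative included Itga3, Actn4 (−0.99, 0.0026), Actn1 (−0.88, 0.00032), Msn (−0.73, 0.011) and Flna (−0.65, 0.00082), and the others were Itga6, Tln1, Src and Parva. For Actn1, Actn4, Msn and Flna, the left-out library was the highest of the wild-type normoxia samples, by 2.03-fold to 2.58-fold over the mean of the others. Bcar1, Fermt2 and Vcl, which rose in both lines, had interaction values of 0.54, 0.27 and 0.16 with that library and 0.26, 0.04 and 0.05 without it, and were called in neither fit.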

How the data were processed

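RNA-seq libraries of 12 samples (4 groups of 3) were analysed. The authors prepared them with a kit that does not mark strand, sequenced single reads of 80 bases, checked them with FastQC 0.11.5, trimmed them with Trim Galore and cutadapt 1.10, aligned them to GRCm38 with TopHat2 2.1.0 and Bowtie2 2.2.6, and counted reads per Ensembl gene (release 94) with HTSeq 0.6.1. These raw counts were deposited without scaling or filtering. The strand setting of the counting is not given in the sources used here.

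Groups and replicate numbers came from the labels. Genes were filtered with filterByExpr (14724 of 54446 kept) and tested in R 4.3.3 with edgeR 4.0.16 (limma 3.58.1 as its library): TMM scaling, 1 mean per group over 12 samples, quasi-likelihood tests and p-values adjusted by Benjamini-Hochberg over the genes kept. Hypoxia was set against normoxia within each line, the lines against each other within each condition, and the responses against each other (interaction), which made 5 comparisons. CPM used TMM-scaled library sizes, and CPM per kb the exon length. Intervals cover counting error only. Exact permutation of 3 samples against 3 cannot go below p = 0.1 and was not used. The code was tested on simulated data.

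The members and the lists of other genes were chosen with earlier results of these data known. Every member is accounted for. Values of each sample are given for members called between lines or in the interaction, for the 8 called members with the largest change in each hypoxia comparison, and for those the study names. From the other lists, some of the 3 called genes with the largest change in each comparison were named. Single markers of other cell types, and members named for a change without wild-type normoxia replicate 2, were picked after their values were seen.

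Replicate numbers are from the labels, which give no shared culture or day. What remained of each normoxia sample after its group mean was removed correlated for equal numbers between the lines at 0.36 to 0.50. The correlation of other pairs was −0.46 to 0.36. A block was taken as a pairing between the lines in normoxia, although this rested on the samples numbered 2. Samples 1 and 3 correlated with the other number at 0.35 and 0.36, and unequal pairs with a sample numbered 2 at −0.46 to −0.38. In the other comparisons the correlations of same-numbered samples were −0.02 to 0.11. Alternatives were DESeq2 1.42.0 (the authors used 1.18.1), RLE size factors, total counts, other filters, a fold of at least 2, the block, the 6 samples alone, and samples left out.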

Additional observations from a re-analysis of the deposited data

Results flagged for a closer look

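One result differed between the lines by a test of the difference itself, with a call that depended on the fit. The log2 response of Itga3 to hypoxia was lower in ΔN-VEGF cells than in the wild type (difference −1.38 ± 0.33 SE, edgeR adjusted p = 0.048), with all 3 ΔN-VEGF hypoxia samples (31.6 to 35 CPM) below all 3 of ΔN-VEGF normoxia (55.8 to 86.1 CPM). The call was lost with replicate number as a block (−1.42, adjusted p = 0.059) and in 10 of the 12 fits that left out 1 sample (adjusted p up to 0.13), and it held without either normoxia replicate 2. Groups of 3 samples are too small for a test of single outlying samples, and none was made.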

How the results depend on the processing

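Of 1156 values recomputed for 53 calls of members, 981 kept direction and call, 174 kept the direction without the call, and 1 reversed: Lims1 in ΔN-VEGF hypoxia, at −0.12 with total counts in place of TMM. Leaving out each sample in turn, the number of members called was 11 to 28 for hypoxia in wild-type cells, 14 to 27 for hypoxia in ΔN-VEGF cells, 2 to 19 and 7 to 20 for the lines in normoxia and hypoxia, and 0 to 19 for the interaction. The highest count was without wild-type normoxia replicate 2 in each case. Without both normoxia samples numbered 2 the counts were 30, 29, 21, 26 and 24, beside 65.3%, 71.4%, 53.6%, 55.8% and 52.8% of all genes. With the 6 samples of a comparison alone they were 9 for hypoxia in wild-type cells (23.8% of all genes), 0 for the lines in normoxia (0.108%, with 1 member higher and 4 lower at an unadjusted p below 0.05, beside 3.65% and 5.81%) and 24 for the lines in hypoxia (57.0%). A replicate block within those 6 samples gave 10, 0 and 25 members (13.3%, 0.00718% and 61.1% of all genes), and a replicate block over 12 samples gave 0 for the interaction (3.29% of all genes, with 9 members more positive and 1 more negative at an unadjusted p below 0.05, beside 13.2% and 9.90%). The block changed no other count by over 1.5 times. A fold of at least 2 left 5, 10 and 5 members for hypoxia in wild-type cells, hypoxia in ΔN-VEGF cells and the lines in hypoxia, beside 15.7%, 27.2% and 6.81% of all genes. For the interaction DESeq2 called 6 members, RLE size factors 2 and no filter on low counts 3, beside 11.2%, 3.54% and 1.47%. Apart from the alternatives that use fewer samples or a stricter call, the cause was not tested. Low counts limit Itga11, Itgb6 and Ilk.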
